A study of Sus scrofa with 90 samples.

Results

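Pig muscle lesions sampled 21 d after an intramuscular injection of propylene glycol, a common vehicle of injectable drugs, were compared with lesions sampled 2 d after the injection. Of the 48 muscle samples of the study, 19 entered this comparison by their labelled lesion age. They were 9 lesions of 21 d (pigs C to K) and 10 lesions of 2 d (pigs C to L), and 9 pigs gave both. All came from the Longissimus dorsi, the long back muscle, of piglets from which lesions of 6 h and 7 d and a control site without an injection were also taken (no 7 d lesion is listed for pig J), so the pig was used as a block. RNA was copied into cDNA with a radioactive label and hybridised to nylon arrays, and of the 4608 features (spotted cDNAs) in the deposited table the 1908 with values throughout were tested. The labels call the animals piglets, and no source used here gives their age.

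Injected propylene glycol is an irritant that kills muscle fibres around the needle track. After such an injury, inflammatory cells clear the dead fibres, satellite cells divide and fuse into new fibres, and connective tissue is laid down while the new fibres mature. A lesion of a few days is therefore usually dominated by necrosis and clearance, and a lesion of several weeks by growing fibres and scar. This is general background on muscle repair, and no histology was used here.

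Values are in log units, of a base that no source used here states, after quantile normalization of the arrays. A difference is the 21 d minus 2 d contrast of a limma fit to all groups with the pig as a block. It can therefore depart slightly from the difference of the group means. For scale, the difference of 2.14 log units of XIRP2 would be 4.41-fold in base 2 and 8.52-fold in natural logs. Only 206 of the tested features carry a gene symbol, for 121 genes, and the other 1702 carry none. A gene named below is the feature listed under its symbol, taken as the brightest where a symbol has several. A feature was called when its limma p-value, adjusted over the 1908 features (Benjamini-Hochberg), was below 0.05.

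Between the lesion ages, 132 features (6.92% of those tested) differed, of which 89 (4.66%) were higher at 21 d and 43 (2.25%) were lower. Without adjustment, 360 features had a p below 0.05, of which 191 were higher and 169 lower. The rises were larger than the falls: 10 called rises exceeded 1 log unit, while no called fall did, and the largest called fall was -0.86. The median called rise was 0.51 and the median called fall was -0.40, and the smallest called difference was 0.22 in size. In 14 features (0.734%) the values of the 21 d and 2 d lesions did not overlap at all, and all of them were called, 11 as higher and 3 as lower. Among the 121 genes with a symbol, 5 (4.13%) were higher and 3 (2.48%) were lower at 21 d, and 14 had an unadjusted p below 0.05. The share of genes called, 6.61%, counts only the brightest feature of each gene, and brighter features were called more often. It is therefore not on the same footing as the share of unnamed features called, 7.17%. Of all 206 features with a symbol, 10 were called. In bulk tissue, fewer cells of a type and less RNA per cell cannot be told apart, and this holds for every difference below.

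**Figure D1:**
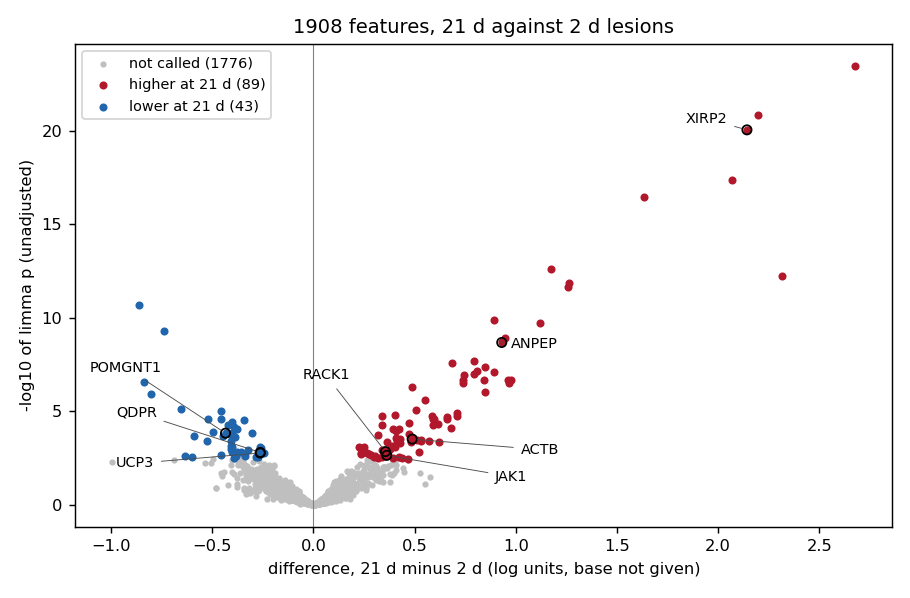
Each point is 1 of the 1908 tested features; the x axis is the difference (21 d minus 2 d, log units) and the y axis is -log10 of the unadjusted limma p. The 89 called rises reach beyond 2 log units, with XIRP2 among them, while the 43 called falls end at -0.86; ringed points are the 8 called genes.

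The clearest named change was in XIRP2, which encodes Xin actin-binding repeat containing 2, a protein of striated muscle that binds actin filaments and sits where myofibrils attach to the membrane. In the 9 lesions of 21 d its lowest, median and highest values were 1.59, 2.21 and 2.89, against -0.11, 0.01 and 0.65 in the 10 lesions of 2 d. Every 21 d lesion was above every 2 d lesion. The means were 2.22 ± 0.44 (SD, n = 9) at 21 d and 0.08 ± 0.22 (n = 10) at 2 d, a difference of 2.14 (SE 0.115, limma adjusted p = 5.68e-18) that was positive in 9 of 9 pigs. Within pigs the difference ran between 1.57 in pig K and 2.88 in pig D. The highest 2 d value belonged to pig E, and the other 2 d lesions reached at most 0.21. XIRP2 has a single tested feature.

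ANPEP, aminopeptidase N or CD13, a membrane peptidase found on myeloid cells, fibroblasts and many epithelia, was the second named gene that was higher at 21 d. Its values ran over 0.90, 1.10 and 1.81 (lowest, median, highest) in 21 d lesions, against 0.01, 0.25 and 0.93 in 2 d lesions. The groups overlapped only because the 2 d lesion of pig D, at 0.93, was above the lowest 21 d lesions. The difference was 0.93 (SE 0.120, limma adjusted p = 2.65e-07) and positive in 9 of 9 pigs, with pig values between 0.40 and 1.44. The other feature listed as ANPEP differed by -0.002 and was not called, so the result belongs to 1 of the 2 features. The feature 12 places further down the list differed by 1.63 and the one 24 places further down by 2.68, both called and both unnamed; the part of list position in the ANPEP result was not tested.

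ACTB encodes cytoplasmic beta-actin, the actin of non-muscle cells and of muscle precursors. It had values of -0.01, 0.46 and 0.86 in 21 d lesions, against -0.25, -0.05 and 0.24 in 2 d lesions. All 21 d lesions but that of pig J, which was the one below 0, stood above the 2 d range. The difference was 0.49 (SE 0.123, limma adjusted p = 0.00777), positive in 8 of 9 pigs and largest in pigs D and F, at 1.07 and 1.04. The call was lost when pig D was left out (0.42, adjusted p = 0.0549) and on the table values as deposited (0.42, adjusted p = 0.0526). None of the 6 other features listed as ACTB was called, and their differences lay between -0.33 and 0.13. Called rises also stood 12 places before and 12 places after the ACTB feature on the list, at 0.32 and 0.89, and their part in the result was not tested.

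JAK1 encodes a tyrosine kinase that carries signals from interferon and interleukin receptors. Its values were -0.17, 0.30 and 0.77 in 21 d lesions, against -0.14, -0.01 and 0.17 in 2 d lesions. All 21 d lesions but that of pig I lay above all 2 d lesions. The difference was 0.36 (SE 0.111, limma adjusted p = 0.0369), positive in 8 of 9 pigs. This call was kept under 10 of the 28 alternative settings. It was lost without the pig as a block (adjusted p = 0.0516) and on leaving out any 1 pig other than H or I (0.31 to 0.38, adjusted p between 0.0511 and 0.138).

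RACK1, a scaffold protein of the small ribosomal subunit that also binds protein kinase C, had values of 0.88, 1.44 and 1.64 in 21 d lesions, against 0.78, 0.95 and 1.29 in 2 d lesions. The groups overlapped, and pig D went the other way, at -0.41, while the other 8 pigs were higher at 21 d. The difference was 0.36 (SE 0.104, limma adjusted p = 0.0261). It depended on the scaling: with the table values as deposited it was 0.05 (adjusted p = 0.906), and with median-centred arrays 0.06 (adjusted p = 0.882). Leaving out pig E, F, I, J or K also ended the call (0.31 to 0.35, adjusted p between 0.0547 and 0.110). The other feature listed as RACK1 differed by -0.12 and was not called.

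Lower at 21 d were 3 genes, led by POMGNT1, a Golgi enzyme that extends the O-mannose sugars of alpha-dystroglycan, the membrane protein that ties the muscle fibre to the basal lamina. Its values were 0.14, 1.02 and 1.17 in 21 d lesions, against 1.01, 1.28 and 1.58 in 2 d lesions. All 9 pigs were lower at 21 d, and pigs J and K were much lower, at -1.17 and -1.44, while the other 7 pigs lay between -0.34 and -0.06. The difference was -0.43 (SE 0.103, limma adjusted p = 0.00439). It was -0.70 (adjusted p = 0.037) on the table values as deposited and -0.69 (adjusted p = 0.0287) on median-centred arrays, while median-centred and MAD-scaled arrays ended the call (-0.47, adjusted p = 0.221).

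QDPR, quinoid dihydropteridine reductase, regenerates tetrahydrobiopterin, the cofactor of the aromatic amino acid hydroxylases. It had values of 0.55, 0.91 and 1.23 in 21 d lesions, against 0.82, 1.17 and 1.38 in 2 d lesions. The ranges overlapped. The difference was -0.26 (SE 0.0771, limma adjusted p = 0.0281), negative in 8 of 9 pigs, with pig C at 0.01. It was -0.51 (adjusted p = 0.0921) on the table values and -0.50 (adjusted p = 0.0752) on median-centred arrays, no longer called on either. Leaving out pig F, H, I or L ended the call as well (adjusted p between 0.0600 and 0.125).

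UCP3, a carrier of the mitochondrial inner membrane made mainly in skeletal muscle, had values of 0.31, 0.48 and 0.56 in 21 d lesions, against 0.41, 0.66 and 1.15 in 2 d lesions. The 21 d lesions lay within a narrow band, 4 of them below the lowest 2 d lesion and the other 5 within the lower part of the 2 d range. The difference was -0.26 (SE 0.0778, limma adjusted p = 0.0299), negative in 7 of 9 pigs. The call was kept under 12 of the 28 alternative settings and was lost on the table values (-0.35, adjusted p = 0.0903), on median-centred arrays (-0.35, adjusted p = 0.0711) and on median-centred and MAD-scaled arrays (-0.25, adjusted p = 0.110). Subtracting the local trend along the feature list left -0.16 (adjusted p = 0.242), and leaving out pig C, D, F, H or I ended the call (adjusted p between 0.0512 and 0.137). The other feature listed as UCP3 differed by -0.004.

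**Figure D2:**
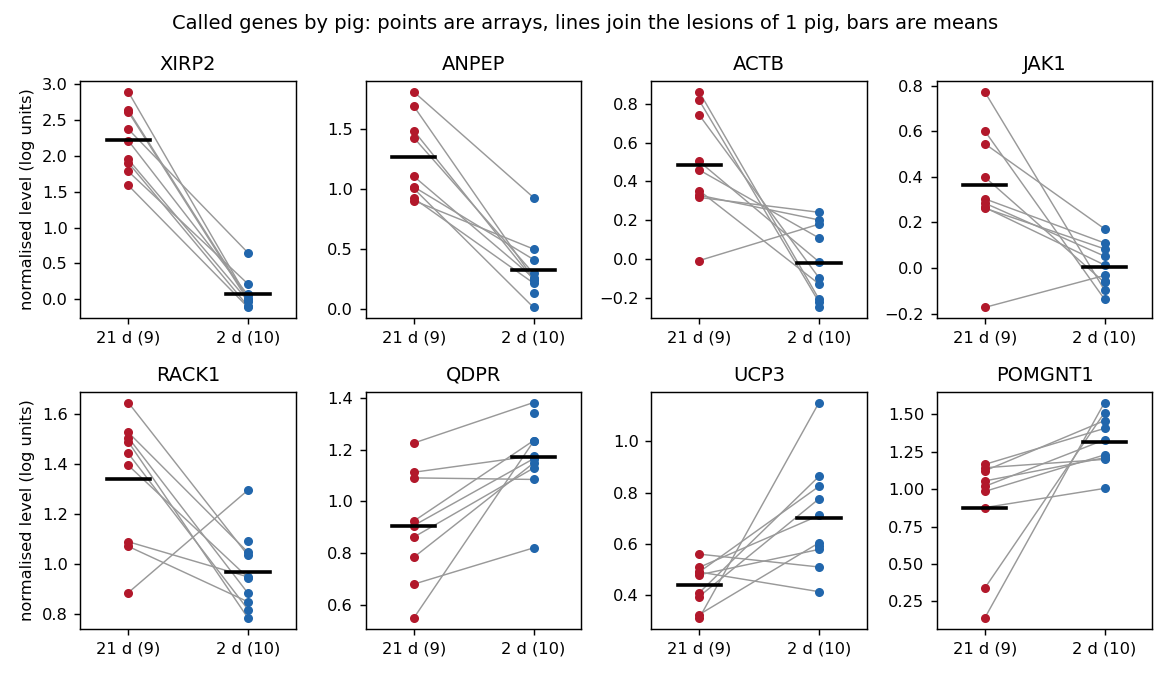
Each panel is 1 called gene, with the 9 lesions of 21 d on the left and the 10 lesions of 2 d on the right; points are arrays in normalised log units, thin lines join the lesions of 1 pig and thick bars are group means. XIRP2 is separated in every pig, the POMGNT1 fall is steepest in pigs J and K, and the smaller changes of the other genes overlap.

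Fitting only the 21 d and 2 d lesions, without the other ages, called 44 features and left XIRP2 and ANPEP as the called genes. These were also the genes called under all 28 alternative settings, leaving out each pig included. The 2-group fit ended the calls of the other 6 genes, with differences of similar size, for example 0.44 for ACTB (adjusted p = 0.110) and -0.43 for POMGNT1 (adjusted p = 0.154). The split between rises and falls depended on the scaling too. Of the called features 67.4% were higher at 21 d after quantile normalization, 42.7% of 75 on the values as deposited and 39.8% of 88 after centring each array on its median.

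The deposited values spread less widely on the 21 d arrays, which is the property that quantile normalization evens out. The SD over features within an array was 0.643 ± 0.196 (SD, n = 9) at 21 d, against 0.805 ± 0.0985 (n = 10) at 2 d. It was lower at 21 d in 8 of 9 pigs, by a mean of -0.171 (exact sign-flip permutation test, two-sided, p = 0.0703, where 0.00391 is the smallest this design allows). The exception was pig C, whose 21 d array had the highest SD of its group, 1.10, and holds values written to more than 9 decimals. Without that array 128 features were called, of which 84 were higher and 44 lower. Brighter features were called more often: split into 3 equal groups by mean level, 13.2% of the brightest, 5.66% of the middle and 1.89% of the dimmest features were called. The part of the array spread in the calls was not tested beyond these settings.

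The remaining named genes were read by lists of muscle and repair functions. The median difference over all tested features was -0.01, and 6.92% of them were called. Of the 121 genes, the lists of slow and fast fibre sarcomere proteins held 5 and 9 measured members, and none passed the test in either direction. Their median differences were -0.11 and 0.01. Among slow fibre genes, MYH7, the slow myosin heavy chain, had values of 0.74, 0.95 and 1.56 in 21 d lesions, against 0.69, 0.85 and 1.20 in 2 d lesions. Its difference of 0.12 (95% interval -0.07 to 0.31, limma adjusted p = 0.526) was smaller than the range within either group. TPM3, the slow tropomyosin, differed by -0.24 (adjusted p = 0.165) and TNNT1, the slow troponin T, by -0.27 (adjusted p = 0.322). Among fast fibre genes, MYH1, a fast myosin heavy chain, differed by 0.14 (adjusted p = 0.609), TNNI2, the fast troponin I, by 0.11 (adjusted p = 0.277) and MYLPF, the fast regulatory light chain, by -0.31 (adjusted p = 0.510). None of these 6 genes separated the lesion ages.

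Features of the same sarcomere gene gave different results, and 2 features that were not the brightest of their gene passed the threshold. Both were chosen after their values were seen. They are among the 10 called of 206 features with a symbol, while 6.92% of all tested features were called. A feature listed as MYLPF, 1 of 18, was higher at 21 d by 0.47 (SE 0.112, limma adjusted p = 0.00447, 9 of 9 pigs). Its values were 0.97, 1.16 and 1.94 in 21 d lesions, against 0.39, 0.81 and 0.92 in 2 d lesions, with no overlap, while none of the other MYLPF features was called and their differences lay between -0.31 and 0.41. A feature listed as TNNC2, fast troponin C, was lower at 21 d by -0.40 (SE 0.0860, limma adjusted p = 0.00142, lower in 9 of 9 pigs). Its values were 1.20, 1.64 and 1.86 in 21 d lesions, against 1.91, 1.98 and 2.14 in 2 d lesions, again with no overlap. The brightest TNNC2 feature differed by -0.33 (adjusted p = 0.615), and none of the others was called. Most TNNC2 features had differences below 0, as the called one did, and the highest was 0.11. Of 31 symbols with at least 2 features, 9 had all their features on the same side of 0, and the median range among features of 1 symbol was 0.239. The median SE of a single feature's difference was 0.108, and whether the spread within symbols goes beyond such error was not tested. Neither was any cause of it.

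Of 5 measured genes shared by all striated fibres or sited at the Z disc and costamere, XIRP2 was the member that passed, and the list's median was -0.01. DES, desmin, the intermediate filament that links Z discs, had values of 0.27, 1.75 and 2.40 in 21 d lesions, against 1.59, 2.15 and 2.74 in 2 d lesions. Pig J held the lowest value, and the difference of -0.42 (95% interval -0.91 to 0.06, adjusted p = 0.358) did not pass. TPM2, beta-tropomyosin, differed by -0.26 (adjusted p = 0.171). Of the list of membrane proteins and dystroglycan glycosylation, 3 genes were measured: ANPEP was higher, POMGNT1 lower, and SLC2A4, the insulin-responsive glucose transporter, differed by 0.03 (adjusted p = 0.886).

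Energy metabolism did not pass the test in either direction, apart from UCP3, which lies outside these lists. None of 9 measured genes of glycolysis, glycogen and creatine kinase was called, and their median was -0.11. CKM, the muscle creatine kinase, had values of 2.04, 2.34 and 2.56 in 21 d lesions, against 2.30, 2.48 and 2.70 in 2 d lesions. Its difference was -0.13 (95% interval -0.29 to 0.02, limma adjusted p = 0.368), negative in 7 of 9 pigs. UGP2, which makes the UDP-glucose used for glycogen, differed by 0.22 (adjusted p = 0.402), and PFKM, the muscle phosphofructokinase, by -0.19 (adjusted p = 0.422). None of 5 genes of the citric acid cycle and fatty acid use was called (median 0.01). IDH2, the mitochondrial NADP-dependent isocitrate dehydrogenase, was highest of them at 0.17 (adjusted p = 0.272) but differed by -0.36 on the values as deposited. HADHA, of mitochondrial beta-oxidation, differed by -0.05 (adjusted p = 0.812) and IDH3B, a subunit of the NAD-dependent isocitrate dehydrogenase, by 0.03 (adjusted p = 0.920).

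The 12 measured ribosomal protein genes had a median of -0.08 and none was called. RPS12 differed by -0.12 (limma adjusted p = 0.646) and RPL19 by -0.11 (adjusted p = 0.689), each lower in 8 of 9 pigs with 1 high 21 d lesion, in pig I for RPS12 and in pig J for RPL19. RPL10A differed by -0.09 (adjusted p = 0.689). Of 4 translation factors and ribosome partners, RACK1 passed, while EEF1G, a subunit of elongation factor 1, differed by -0.26 (adjusted p = 0.264) and TPT1, a translationally controlled protein, by -0.12 (adjusted p = 0.516). Their list's median was -0.08. Of 5 non-muscle cytoskeleton genes, ACTB passed. CFL1, cofilin, which severs actin filaments, differed by -0.13 (adjusted p = 0.462), and TUBA1B, an alpha-tubulin, by -0.03 (adjusted p = 0.880), and the median of that list was -0.02.

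All 6 measured genes of inflammatory and cytokine signalling had differences above 0, the smallest at 0.002, but JAK1 alone passed and the median was 0.08. Whether this shared direction goes beyond chance was not tested. B2M, the light chain of class I antigen-presenting molecules, had the largest difference of the list. Its values were -0.06, 1.20 and 1.83 in 21 d lesions, against -0.13, 0.48 and 1.73 in 2 d lesions. These ranges overlapped almost fully, and the difference of 0.55 (95% interval -0.06 to 1.17, limma adjusted p = 0.338) was positive in 5 of 9 pigs. PTGS2, the inducible cyclooxygenase, differed by 0.12 (adjusted p = 0.434). The interval of B2M spans differences larger than that of JAK1. On the same arrays, B2M had an SD of 0.62 at 21 d and 0.66 at 2 d, against 0.27 and 0.10 for JAK1. This spread, with the array number, limits what can be said of B2M.

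The other lists held 1 to 3 measured genes each and no call. FTH1, ferritin heavy chain, differed by 0.13 (limma adjusted p = 0.606), HSPE1, the mitochondrial co-chaperonin, by 0.04 (adjusted p = 0.868) and HSP90AA1, a cytosolic chaperone, by -0.04 (adjusted p = 0.880). NPPA, the atrial natriuretic peptide precursor, differed by 0.18 (adjusted p = 0.337), and MAPK12, the p38 kinase of muscle, by -0.02 (adjusted p = 0.959). Of calcium handling genes, ATP2A2, the slow-fibre calcium pump, differed by -0.11 (adjusted p = 0.672), RYR1, the calcium release channel, by -0.07 (adjusted p = 0.888) and SLN, sarcolipin, by 0.01 (adjusted p = 0.980). CAPNS1, the small subunit of the calpains, differed by -0.20 (adjusted p = 0.613), and FN1, fibronectin, was the one measured matrix gene, at -0.22 (adjusted p = 0.186). The nuclear genes of oxidative phosphorylation COX7A1 and NDUFA4 differed by -0.12 and -0.02, neither called. No gene of the mitochondrial genome or of the cell cycle list was among the tested features.

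**Figure D3:**
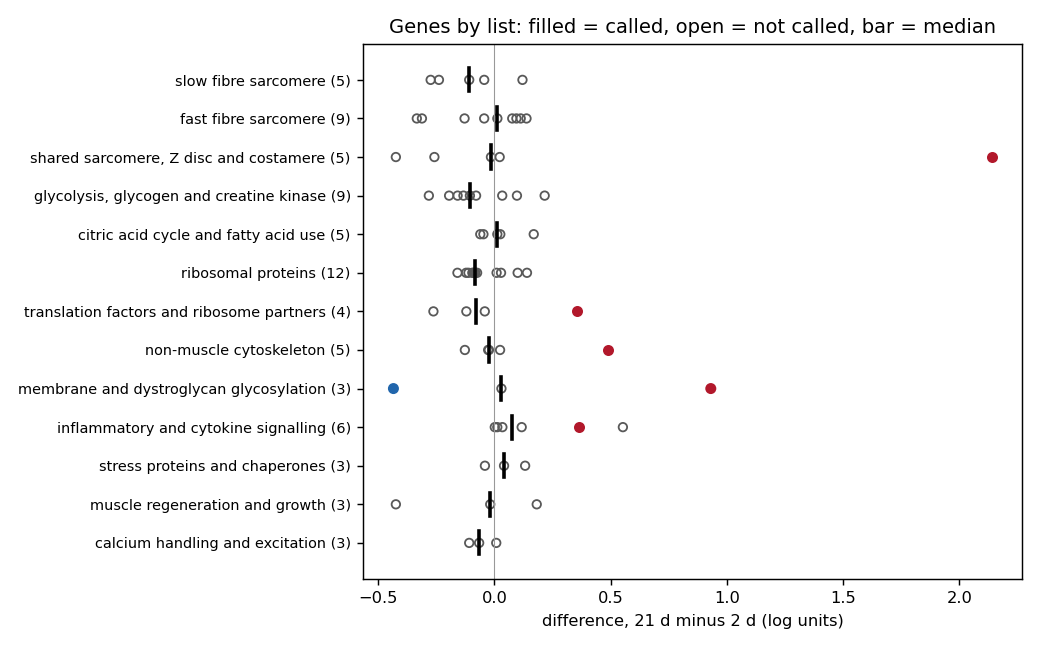
Each circle is 1 measured gene placed by its difference (21 d minus 2 d, log units), in rows for the lists with at least 3 measured genes; filled circles were called and vertical bars are list medians. List medians stay between -0.11 and 0.08. XIRP2, RACK1, ACTB and JAK1 are each the single called member of a list, while ANPEP (higher) and POMGNT1 (lower) share a list.

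The cell types of the lesions could be checked only in part. Of 11 skeletal fibre markers 7 were measured, with differences between -0.31 and 0.14 and none called. Of the 12 marker lists, 9 had no measured gene, among them those of neutrophils, macrophages, lymphocytes, fibroblasts, satellite cells and newly formed fibres. The endothelial marker PECAM1 differed by 0.003. Changes in the share of inflammatory or regenerating cells between 2 d and 21 d were thus not measured by defining markers.

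Most tested features carry no symbol, and 122 of these 1702 (7.17%) were called, near the 6.92% of all tested features. As higher at 21 d 4.88% were called and as lower 2.29%, against 4.66% and 2.25% of all tested features. The largest rise of all was feature 5139, with values of 3.52, 3.75 and 3.93 in 21 d lesions, against 0.68, 1.10 and 1.43 in 2 d lesions. The groups were far apart, and each spanned less than 1 log unit. Quantile normalization gives equal ranks on different arrays the same value, and the 21 d lesions of pigs D, E and K shared the value 3.93. Its part in the narrow 21 d span was not tested. The difference was 2.68 (SE 0.116, limma adjusted p = 6.51e-21) and positive in 9 of 9 pigs. The next largest, feature 7368, had values of 0.17, 2.79 and 3.07 in 21 d lesions, against -0.27, 0.16 and 0.51 in 2 d lesions. All 21 d lesions but one were far above the 2 d range; that of pig K, at 0.17, lay within it. The difference was 2.32 (SE 0.219, limma adjusted p = 1.56e-10), positive in 8 of 9 pigs.

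The largest falls were smaller. Feature 7571 had values of -0.01, 0.09 and 0.42 in 21 d lesions, against 0.55, 0.88 and 1.34 in 2 d lesions, with no overlap. Its difference was -0.86 (SE 0.0923, limma adjusted p = 4.00e-09, lower in 9 of 9 pigs). Feature 7150 had values of -0.36, 0.26 and 0.50 in 21 d lesions, against 0.31, 1.05 and 1.28 in 2 d lesions. These overlapped slightly, with a difference of -0.84 (SE 0.134, limma adjusted p = 1.88e-05, lower in 8 of 9 pigs). All 4 of these features were called under every one of the 28 alternative settings.

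The levels of the same features at the other ages place the comparison in the time course. The 89 features higher at 21 d had median levels of 0.08 in controls and of 0.51, 0.11, 0.78 and 0.70 in lesions of 6 h, 2 d, 7 d and 21 d. Their 2 d level was near that of the controls, and the 7 d level near that of 21 d. The 43 features lower at 21 d had median levels of 0.79 in controls and of 0.52, 0.94, 0.50 and 0.47 in lesions of 6 h, 2 d, 7 d and 21 d. Since these features were chosen by 2 of the 5 groups, the levels are a description. The contrasts below share samples with the comparison and are given side by side for the same reason.

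XIRP2 averaged -0.004 in controls and 1.18, 0.08, 2.10 and 2.22 in lesions of 6 h, 2 d, 7 d and 21 d. The gene was thus high at 6 h, at the control level at 2 d and high again from 7 d. Its limma differences from control were 1.21 at 6 h, 0.08 at 2 d (adjusted p = 0.798), then 2.08 at 7 d and then 2.22 at 21 d, and 21 d minus 7 d was 0.14 (adjusted p = 0.808). Most of the distance between 21 d and 2 d was already present at 7 d, where 7 d minus 2 d was 2.00. Feature 5139 had the same order of levels, with differences from control of 1.34, 0.09, 2.46 and 2.77 in lesions of increasing age.

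ANPEP followed another course, with group means of 0.13 in controls and of 0.29, 0.32, 0.76 and 1.26 in lesions of 6 h, 2 d, 7 d and 21 d. Its mean was higher at each later age, but the 6 h and 2 d means were close. The 6 h lesions were not called against control (0.17, limma adjusted p = 0.408). The difference from control was 0.19 at 2 d (limma adjusted p = 0.609), 0.64 at 7 d (adjusted p = 8.47e-05) and 1.12 at 21 d (adjusted p = 3.75e-09), and 21 d minus 7 d was 0.48 (adjusted p = 0.0558), just short of the threshold. ACTB differed from control by -0.14 at 2 d (adjusted p = 0.716) and by 0.35 at 21 d (adjusted p = 0.0482). JAK1 stood above control by 0.68 at 6 h, 0.74 at 7 d and 0.54 at 21 d, all called, and by 0.18 at 2 d (adjusted p = 0.602). RACK1 was not called against control at either age: it stood 0.21 above control at 21 d (adjusted p = 0.191) and differed from it by -0.15 at 2 d (adjusted p = 0.660).

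The genes lower at 21 d were below the controls at that age. POMGNT1 differed from control by -0.13 at 2 d (limma adjusted p = 0.695) and by -0.56 at 21 d (adjusted p = 0.000161). QDPR differed from control by -0.07 at 2 d (adjusted p = 0.725) and by -0.34 at 21 d (adjusted p = 0.00222). UCP3 differed from control by 0.03 at 2 d (adjusted p = 0.854) and by -0.23 at 21 d (adjusted p = 0.0425). Low levels were not particular to 21 d: QDPR was below control at 6 h (-0.34, adjusted p = 0.0023) and at 7 d (-0.38, adjusted p = 0.00025). POMGNT1 was below control at 7 d (-0.54, adjusted p = 0.00013) and not called at 6 h (-0.19, adjusted p = 0.245). UCP3 was not called at 6 h (-0.17, adjusted p = 0.143) or 7 d (-0.09, adjusted p = 0.468). The levels of the largest unnamed falls had another order: feature 7571 was 0.98 above control at 2 d (adjusted p = 4.52e-10) and 0.12 above it at 21 d (adjusted p = 0.454), and feature 7150 was 1.06 above control at 2 d and 0.22 above it at 21 d (adjusted p = 0.294). Both were high at 2 d and no longer called against control at 21 d.

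**Figure D4:**
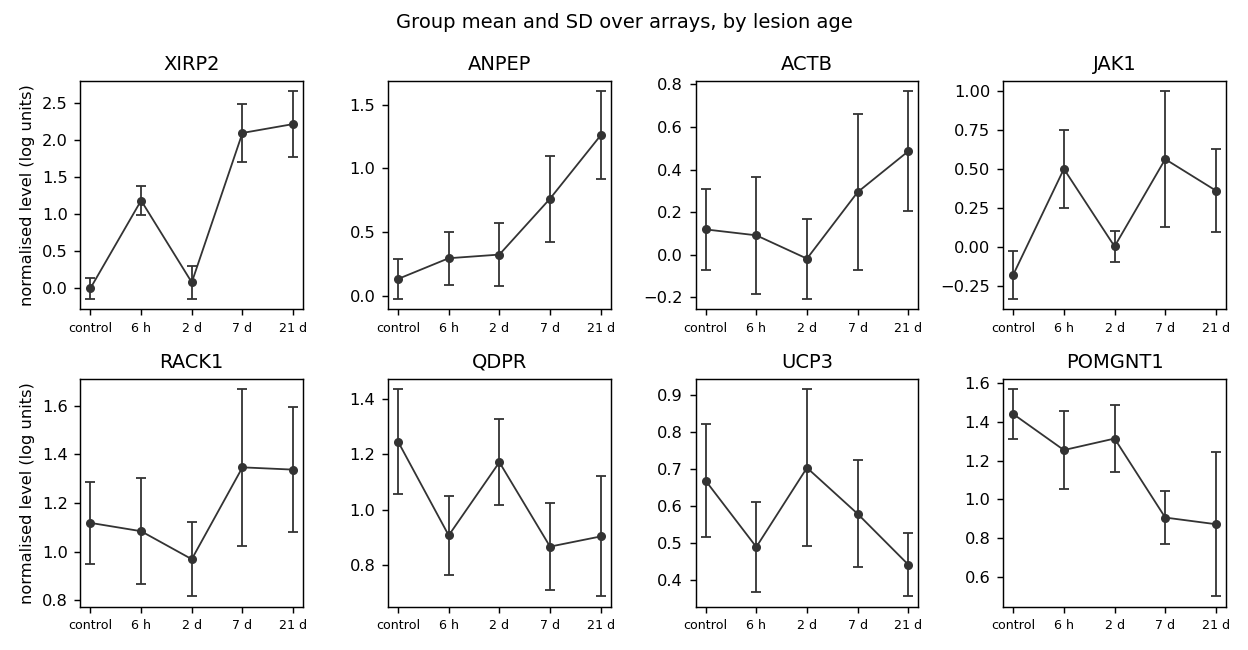
Group means with SD bars over arrays (normalised log units) for the 8 called genes, in the order control, 6 h, 2 d, 7 d and 21 d (10, 9, 10, 9 and 9 arrays). XIRP2 is at 0.08 at 2 d, between 1.18 at 6 h and 2.10 at 7 d. The ANPEP mean is higher at each later age, though close at 6 h (0.29) and 2 d (0.32).

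The place of a feature on the list moved with its difference. Differences of features 12 places apart correlated at r = 0.225 (1145 pairs) and those 24 places apart at r = 0.222 (1085 pairs). At 36 and 48 places r was 0.108 and 0.0988, and at the 44 other separations up to 48 it lay between -0.01 and 0.133, with a median of 0.0608. These are descriptions across features that share the same arrays. Of the 132 called features, 21 had a feature called in the same direction 12 places further along or back, against 10 at 13 places, 11 at 11 places, 16 at 1 place and 12 at 7 places. No source used here says how the list maps to positions on the membrane, and the part of position in the calls was not tested. XIRP2 had no called feature 12 places away (0.12 before it and -0.07 after it).

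**Figure D5:**
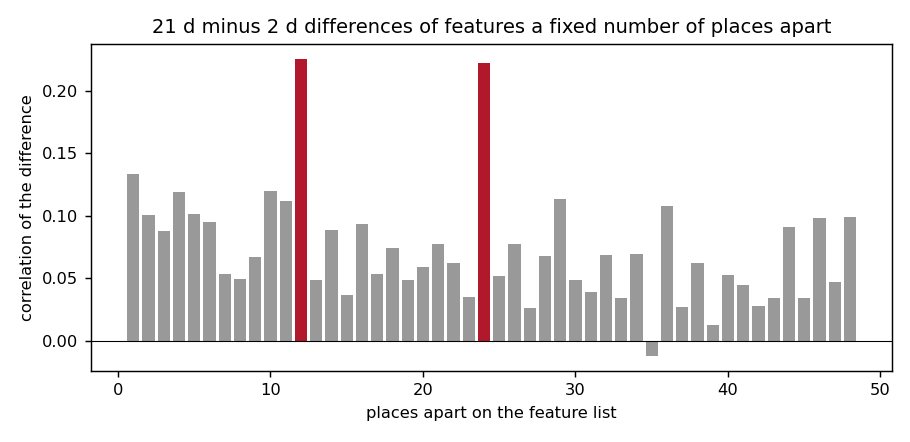
The x axis is the number of places between 2 features on the list and the y axis the Pearson correlation of their 21 d minus 2 d differences over all pairs that far apart. The bars at 12 and 24 places reach 0.225 and 0.222, above all other bars.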

How the data were processed

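Values came from the series' deposited table of log values, whose base, centring and feature filter are not given in the sources used here. Per the labels' protocols, cDNA labelled with 33P was hybridised to 1 nylon array per sample, with each feature in duplicate, and the images were read by phosphor imaging. The 90 columns belong to 48 samples; 42 samples have 2 columns, identical in 41, and these were averaged. Left out were 1 column, the copy of another sample's, and the 6 h array of pig F, which was out of register (r = 0.240 in place and 0.739 moved by 384 features); neither belongs to a compared group. The arrays of 21 d and 2 d lesions had r of at least 0.718 in place.

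The 47 arrays were quantile normalised and fitted in R 4.3.3 with limma 3.58.1 (lmFit, eBayes), with terms for group and pig (33 residual degrees of freedom); two-sided p-values were adjusted by Benjamini-Hochberg over 1908 features. Intervals are 95%. Arrays carry no molecule count, so their number limits the precision, with a median SE of 0.108. The pairing comes from the design: lesions of both ages came from the same animal in 9 pigs. Deviations of the 2 lesions of 1 pig had a median correlation of -0.201 (9 pigs), against 0.0307 between pigs. The fit was tested on simulated data. Symbols came from the platform's annotation; 204 of 206 identifiers matched the current gene table. Named are all called genes, the 3 members of smallest p of each of the 13 lists with at least 3 measured genes, 9 genes described in earlier work on these data, and the 2 largest unnamed rises and falls. The members and lists were chosen with earlier results of these data known. Alternatives concerned scaling, samples, block, weights, trend and filters. Figures used matplotlib 3.10.9.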

Additional observations from a re-analysis of the deposited data

Results flagged for a closer look

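In 20 of 92 groups of values examined, the highest or lowest lesion stood far from its nearest neighbour; chance gives about 1 in 20 groups. Of these, 7 were the 21 d lesion of pig J, whose array had the lowest correlation with the other arrays among the 21 d and 2 d lesions (r = 0.718). It was high for MYH7 (1.56, next 1.15), MYH1 (1.65, next 0.78), RPL19 (1.83, next 0.97), NPPA (0.83, next 0.40), RYR1 (1.18, next 0.22) and feature 7571 (0.42, next 0.10), and low for DES (0.27, next 1.47). Without this array 179 features were called, of which 126 were higher and 53 lower at 21 d. The 2 d lesion of pig D, at r = 0.786 the lowest of its group, was high for ANPEP (0.93, next 0.50) and MYH7 (1.20, next 0.95) and low for QDPR (0.82, next 1.09). Without it 119 features were called.

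At 21 d, the array of pig C was high for CFL1 (3.35, next 2.93) and had the highest SD within an array (1.10, next 0.736). Among the other lesions of 21 d, pig I was high for RPS12 (0.91, next -0.19), pig D was high for PTGS2 (0.32, next -0.05), and pig K was low for feature 7368 (0.17, next 1.97). Among the lesions of 2 d, pig E was high for XIRP2 (0.65, next 0.21) and RPS12 (0.46, next 0.03), pig I was high for SLC2A4 (0.0151, next -0.25), and pig K was low for TNNT1 (0.22, next 0.81) and MYLPF (-0.22, next 1.35).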

How the results depend on the processing

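The fit as reported called 132 features, 89 higher and 43 lower at 21 d, and 8 genes with a symbol. On the table values as deposited 75 were called (32 higher, 4 genes), with median-centred arrays 35 were higher (5 genes), and with median-centred and MAD-scaled arrays 79 were called (54 higher, 25 lower, 3 genes). With only the 21 d and 2 d lesions in the fit the counts were 44, 33 higher, 11 lower and 2 genes, and array weights gave 204, of which 140 were higher. Keeping the 6 h array of pig F gave 89 features, 64 higher and 25 lower, and 5 genes. JAK1, QDPR and UCP3 lost their calls there, although this array belongs to neither compared group. Leaving out 1 pig at a time gave 95 (pig D) to 149 (pig J) features, 59 (pig D) to 107 (pig J) higher, 29 (pig F) to 52 (pig G) lower and 4 (pig F) to 7 genes. Without the pig as a replicate block 139 features were called and with a random block 136, 127 and 126 of them shared with the 132; JAK1 lost its call under both. The difference in SD within arrays was -0.241, past the threshold, without the 21 d array of pig C or without pig C. Both settings leave the same pairs. Pig C was the only pig of 9 that was not lower at 21 d. Without it all differences had the same sign, so the sign-flip test could only return its smallest p. The settings leaving out the 21 d arrays of pigs C and J, the 2 d array of pig D or the 5 arrays with more decimals were chosen after seeing the data. Over 28 settings, 49 of 1251 differences of named genes and features changed sign, none past the test in either state.

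The differences that changed sign were as follows. On the table values MYH7 was at -0.14, MYH1 at -0.031, IDH2 at -0.36, HADHA at 0.014, TUBA1B at 0.090 and HSPE1 at -0.54. With median-centred arrays MYH7 was at -0.13, MYH1 at -0.022, IDH2 at -0.35, HADHA at 0.023, TUBA1B at 0.10 and HSPE1 at -0.53. With MAD scaling as well MAPK12 was at 0.033 and SLN at -0.00778. With only the 21 d and 2 d lesions SLN was at -0.0045. With array weights HSPE1 was at -0.068. With the array SD as a covariate HSP90AA1 was at 0.0013, MAPK12 at 0.032 and SLN at -0.029. After subtracting the local trend HADHA was at 0.0031, IDH3B at -0.022, TUBA1B at 0.053, SLC2A4 at -0.011, HSP90AA1 at 0.028 and RYR1 at 0.0087. With the leading digit of the array number in the sample titles as a factor HSPE1 was at -0.032 and SLN at -0.035. Without the 21 d array of pig J MYH1 was at -0.012, IDH3B at -0.015, SLC2A4 at -0.017, MAPK12 at 0.024 and SLN at -0.049. Without the 2 d array of pig D RYR1 was at 0.022. Leaving out 1 pig at a time gave ranges across 0 for RYR1 -0.22 to 0.064, HSPE1 -0.033 to 0.090, HSP90AA1 -0.10 to 0.0050, TUBA1B -0.061 to 0.00076, SLN -0.060 to 0.056, MYH1 -0.025 to 0.20, IDH3B -0.019 to 0.079, SLC2A4 -0.029 to 0.063 and MAPK12 -0.046 to 0.036. The cause was not tested.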

Other observations

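Of the features outside the test, 5 had values in 2 or 3 columns only, and all 5 had one in the 21 d lesion of pig C. In that lesion feature 8391 was at -0.44 and feature 9202 at 1.15, while features 9209, 9210 and 9211 shared the value -0.05. The 6 h lesion of pig I held values for 4 of them, -0.21 for feature 8391 and -0.06 for each of features 9209, 9210 and 9211.

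In consecutive blocks of the list the share of called features ran between 2.78% and 12.3%, against 6.92% of all tested features. The highest share was that of the 187 tested features numbered 7681 to 8064. There 23 were called (12.3%), 22 of them higher at 21 d, against 89 of the 132 called over the whole list. Of 265 tested features numbered 5761 to 6144, 11 were called (4.15%), 4 of them higher. Lower shares, 3.7% and 2.78%, came from blocks with only 27 and 36 tested features. Whether the shares differ beyond chance was not tested.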
